A study of Mus musculus with 7 samples.

Results

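The comparison described here is that of cultured mammary glands from αERKO mice, which lack functional ERα, with glands from βERKO mice, in which ERβ was targeted. It rests on 2 of the 7 arrays of the series, chosen by their titles as the ESR1 KO array (genotype αERKO) and the ESR2 KO array (genotype βERKO), and on the 5 wild-type arrays as the range against which both were set. Of the 34967 gene probes, 21480 were called good, that is above background, on both knockout arrays and make up the comparison; 2441 were good on the αERKO array alone, 3105 on the βERKO array alone and 7941 on neither. The 21480 probes include 10380 genes named through RefSeq, each read from its brightest probe, by mean log2 value.

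The arrays were 1-colour CodeLink Mouse Whole Genome oligonucleotide arrays, with 1 array per group and RNA pooled from the glands of 5 mice for each group of the study. Groups were αERKO, 24 days and βERKO, 24 days (strain background C57BL6/129SV), wild-type C57 glands after 24 days of culture with DMBA, after 10 days without it and after 24 days without it, and wild-type Balb/c glands after 24 days with and without Vitamin D5. All glands came from mice 4 weeks of age and were kept in serum-free organ culture, in which 10 days with insulin, prolactin, aldosterone and hydrocortisone were followed, in the 24-day cultures, by 14 days with insulin. The protocol names 2 µg/ml DMBA (7,12-dimethylbenz[a]anthracene, a polycyclic aromatic hydrocarbon that initiates mammary lesions) on Day 3 for 24 h. The titles name DMBA for 1 C57 array only; the study's text describes the knockout glands on the arrays as cultured with the carcinogen, and for the Balb/c arrays DMBA is not stated. For the arrays, the study's text gives pretreatment of wild-type and knockout mice with progesterone (1 mg) and EGF (25 ng) over 5 days, whereas the labels also describe estrogen (1 µg) with progesterone (1 mg) over 9 days. The study describes the βERKO and wild-type glands on the arrays as bearing mammary alveolar lesions and the αERKO glands as free of them, so genotype and the state of the gland cannot be told apart; its methods also say that lesion-free αERKO glands gave nothing for molecular work, at odds with the αERKO array. Both knockouts were made on another strain background than the wild-type arrays: C57BL6/129SV against C57 or Balb/c.

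ERα and ERβ are nuclear receptors that bind estrogens and regulate transcription, in part through the same DNA element. In the mammary gland ERα, made in a share of luminal cells, is needed for ductal growth at puberty and for induction of the progesterone receptor, whereas glands without ERβ form ducts. Cultured glands hold ducts and alveoli in a fat pad with stroma, vessels and immune cells, so the RNA of a pool is a mixture of all of these.

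Between 68.4% of the gene probes, on the αERKO array, and 74.2% were called good over the 7 arrays, and the median intensity lay between 39.1, also on the αERKO array, and 53 over a local background of 80 to 83. Values below are log2 intensities after division by the median of the array, called log2 normalized intensities, and a log2 ratio is the αERKO value less the βERKO value. Over the 18695 probes good on all 7 arrays, Pearson's r across probes was 0.900 between the knockout arrays, 0.842 to 0.917 between the αERKO and wild-type arrays, 0.934 to 0.964 between the βERKO and wild-type arrays and 0.918 to 0.988 among wild-type arrays. The αERKO array therefore stood apart from the other 6, and its nearest array was C57, 24 days + DMBA. Probes on the same array share its labelling and scan and are not independent replicates. With 1 array per group no test was possible, and no difference given here has a replicate check; the SD of a log2 ratio between probes of the same accession, 0.58 over 509 pairs, shows the disagreement between probes and not that between glands.

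The targeted genes were examined first. For ERα, the Esr1 probe (GE42492) was good on 2 of the 7 arrays, both wild-type, at -1.02 on C57, 24 days + DMBA and -0.74 on Balb/c, 24 days + Vitamin D5. Both knockout arrays and 3 of the 5 wild-type arrays were near background, so this probe does not check the αERKO label. The Esr2 probe (GE1577274), for ERβ, was good on the βERKO array, at 0.87, and on C57, 24 days, at -0.55, and near background on the other 5. It was at least 5.05-fold brighter on this array than on αERKO, a bound set by the lowest good signal of the dim array. An Esr2 signal above background was measured on the array whose label names an ERβ knockout, which is therefore called the βERKO-labelled array below, and every direction given here rests on it. Which exon was disrupted and where the probe lies are not given in the sources used here, so whether a disrupted transcript would carry the probe's target was not tested. Of the genes flanking each receptor gene, 5 on each side, 8 were good on both arrays for Esr1, with 0 over 2-fold, and 8 for Esr2, with 2 over 2-fold lower on the αERKO array. Among all genes 8.53% were over 2-fold higher and 18.2% lower, and 8 genes are too few to set apart from these shares.

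The knockout arrays differed over 2-fold for 4775 of the 21480 probes (22.2%), of which 1899 (8.84% of all) were brighter on αERKO and 2876 (13.4%) dimmer. Among named genes, 885 (8.53%) were higher and 1891 (18.2%) lower, and every count of list members over 2-fold given below stands beside these shares. The larger share of lower probes depended on the scaling: with each array scaled to its 75th percentile, 2462 were higher and 2128 lower, and after cyclic loess 2617 were higher and 1751 lower. By gene, those higher made up 10.7% with the 75th percentile, 9.98% after quantile normalization, 11.8% after loess, 5.57% with normexp background correction and 8.59% with the deposited normalized intensity, and those lower 13.8%, 14.0%, 11.1%, 12.8% and 18.1%. The median log2 ratio of all genes was -0.30 with the array median, -0.12 with the 75th percentile and -0.02 after cyclic loess, and gene lists are read below against these medians rather than against 0. Septin2, at a log2 ratio of -1.00002, lay just over the 2-fold line and Rffl, at -0.9998, just under it. Of the accessions with a pair of probes of which at least 1 was over 2-fold, 169 of 184 had both on the same side of 0.

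**Figure D1:**
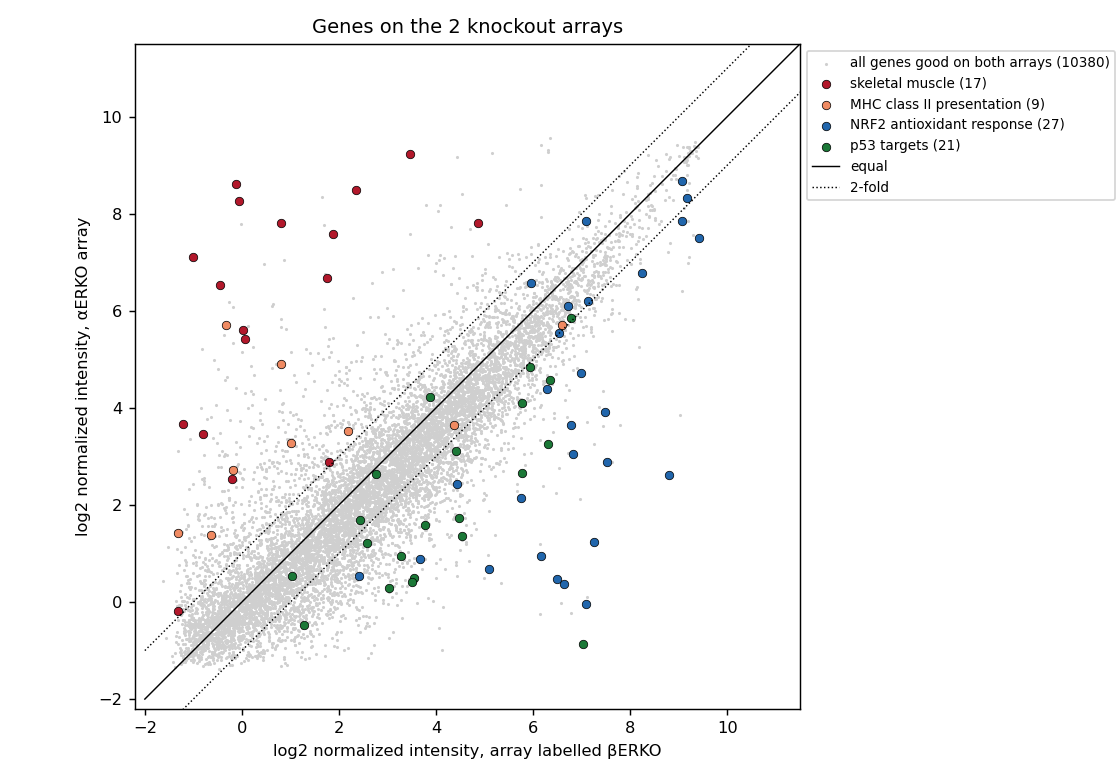
Log2 normalized intensity of the 10380 named genes on the αERKO array (vertical axis) against the βERKO-labelled array (horizontal axis); coloured points are members of 4 gene lists, the solid line marks equal values and the dotted lines 2-fold. All 17 skeletal muscle genes lie above the upper dotted line, and 20 of 27 NRF2 genes and 16 of 21 p53 targets lie below the lower one.

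Genes of the NRF2 antioxidant response, which encode enzymes that make glutathione and detoxify electrophiles under the transcription factor NRF2, were lower on the αERKO array. Of the 27 members good on both arrays, 20 were over 2-fold lower and 0 higher, beside 18.2% and 8.53% of all genes, and their median log2 ratio was -2.29 beside -0.30 for all genes. Over the 6 scalings tried, 19 to 21 were lower. Gpx2, a glutathione peroxidase of epithelia, was -0.04 on the αERKO array and 7.09 on the βERKO-labelled array. The wild-type arrays, given here and below in the order C57, 24 days + DMBA; C57, 10 days; C57, 24 days; Balb/c, 24 days; and Balb/c, 24 days + Vitamin D5, had 5.29, 8.09, 7.78, 7.92 and 7.83. The αERKO value thus lay below every other array, with the C57 array of DMBA-treated glands the next lowest, and the log2 ratio was -7.14.

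Hmox1, which encodes the heme-degrading enzyme heme oxygenase 1, was 2.62 and 8.80 on the αERKO array and the βERKO-labelled array, and 7.32, 8.53, 9.13, 8.39 and 7.85 on the wild-type arrays, a log2 ratio of -6.18. Gsta1, a glutathione S-transferase, was 0.38 and 6.63, against 1.78, 8.36, 7.41, 8.67 and 8.30, a log2 ratio of -6.25. Nqo1, a quinone reductase, was 0.47 and 6.49, against 4.34, 6.90, 6.09, 6.38 and 6.68, a log2 ratio of -6.03. In each of these genes the αERKO array was the lowest of the 7 and C57, 24 days + DMBA the lowest of the wild-type arrays, while the βERKO-labelled array lay within the wild-type range. Gsta2 was good on the βERKO-labelled array and near background on αERKO, at least 267-fold lower. Over the list, the αERKO array was below all 5 wild-type arrays for 23 of 27 genes, beside 39.7% of all genes. The βERKO-labelled array was above all 5 for 6 of the 27, a share no larger than the 24.5% of all genes. The exceptions to the direction were Me1 (log2 ratio 0.62) and Tkt (0.76), enzymes that supply or feed the pathways supplying NADPH, which stayed within 2-fold except after cyclic loess, where 2 members of the list were over 2-fold higher.

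Promoters were searched for the core of the antioxidant response element, TGACNNNGC, on both strands, in RefSeq sequences of 300 bases around each gene's start (GRCm38.p6). These letters were present in 12.4% of 32851 promoters and, counted by gene, in 14.0% of 27025 genes and in 9 of the 23 list members with a promoter in the table. The letters also hold the AP-1 site TGANTCA in 3.37% of their matches. Of the 4 members on opposite sides of the wild-type range, Cbr3, Gsta3, Gstm1 and Prdx1, a match was found for Gsta3 (chr1:21240335-21240634, plus strand) and Prdx1 (chr4:116685349-116685648, plus strand), shown with the matched letters in capitals; that of Prdx1 is on the reverse strand and includes the AP-1 letters. A match is a description of the sequence and not a binding site.
Gsta3: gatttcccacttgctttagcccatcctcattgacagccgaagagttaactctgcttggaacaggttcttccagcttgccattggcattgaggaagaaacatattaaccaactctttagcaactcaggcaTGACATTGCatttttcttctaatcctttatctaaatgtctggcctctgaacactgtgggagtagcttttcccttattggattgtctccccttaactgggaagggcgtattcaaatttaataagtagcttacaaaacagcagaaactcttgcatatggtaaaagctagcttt
Prdx1: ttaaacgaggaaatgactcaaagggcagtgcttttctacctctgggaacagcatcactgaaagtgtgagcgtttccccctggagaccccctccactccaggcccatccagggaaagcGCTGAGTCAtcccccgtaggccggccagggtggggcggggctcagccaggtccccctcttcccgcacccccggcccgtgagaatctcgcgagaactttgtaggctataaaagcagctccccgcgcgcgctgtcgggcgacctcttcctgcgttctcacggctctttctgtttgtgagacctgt
For Gsta3, the log2 normalized intensities were 4.39 and 6.28 on the knockout arrays, against 5.04, 5.94, 5.65, 5.90 and 5.86, and for Prdx1, a peroxiredoxin, 7.51 and 9.41, against 8.57, 9.18, 9.33, 9.26 and 9.15. Both pairs bracketed the wild-type arrays, for Gsta3 under all 6 scalings and for Prdx1 under 4.

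Genes of the aryl hydrocarbon receptor and DMBA metabolism gave the same direction, with 7 of 12 over 2-fold lower, 0 higher and a median log2 ratio of -1.36; Nqo1, Ephx1 and Aldh3a1 are shared with the NRF2 list. Cyp1b1, the cytochrome P450 that activates DMBA in extrahepatic tissue, was 2.13 on the αERKO array and 6.98 on the βERKO-labelled array, against 5.06, 7.47, 5.64, 6.76 and 7.29, with a log2 ratio of -4.84. Cyp1a1, a classic target of the receptor, had a log2 ratio of -2.18. Ephx1, microsomal epoxide hydrolase, was 3.92 and 7.49, against 6.08, 7.59, 7.59, 7.35 and 7.34. For Cyp1b1 and Ephx1 the βERKO-labelled array lay within the wild-type range and the αERKO array below it.

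The p53 targets, genes induced by the tumor suppressor p53 after DNA damage, held the largest share, 38.1%, of genes with the αERKO array below and the βERKO-labelled array above the wild-type range among the 39 lists with arrays scaled to their median. The order depended on the scaling: with the 75th percentile p53 targets and immediate early genes both had 6 of 21, and with normexp p53 targets had 6 and immediate early genes 8. Of 21 measured, 16 were lower on αERKO by over 2-fold and 0 higher, with a median log2 ratio of -1.77, and 14 to 16 were lower over the 6 scalings. In 8 of the 21 the αERKO array lay below and the βERKO-labelled array above all 5 wild-type arrays, beside 5.68% of all genes; under the other scalings the count was 6 to 8, and for 5 genes it held under all 6. The αERKO array was below all wild-type arrays for 15 of the 21, and the βERKO-labelled array above all of them for 13, beside 39.7% and 24.5% of all genes.

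Gdf15, a stress-induced cytokine of the TGF-beta family, had the lowest log2 ratio of all genes, -7.89. It was -0.86 on the αERKO array and 7.03 on the βERKO-labelled array, and 3.86, 5.12, 4.45, 4.70 and 4.47 on the wild-type arrays, which lay between the knockout arrays with room on each side. Bax, which permeabilizes mitochondria in apoptosis, was 2.65 and 5.78, against 4.70, 5.59, 6.28, 5.21 and 5.35, and Perp, a membrane protein of desmosomes, was 1.36 and 4.54, against 4.58, 5.36, 5.30, 4.72 and 5.07. Only the αERKO array was outside the wild-type range for Bax, and both knockout arrays were below it for Perp. The members on opposite sides besides Gdf15 were Aen, Btg2, Ccng1, Psrc1, Polk, Sesn2 and Zmat3; these, like the other list members named for lying on opposite sides, were chosen after their values were seen. Btg2, an antiproliferative gene, was 0.49 and 3.54, against 2.92, 2.74, 3.17, 2.19 and 2.99. Polk, a translesion DNA polymerase, was 1.74 and 4.47, against 3.66, 4.21, 4.33, 3.42 and 3.83. Aen, an apoptosis-enhancing nuclease, was 0.29 and 3.03, against 2.09, 2.18, 2.93, 1.51 and 1.89. In these the distance on the αERKO side exceeded that on the other side, where the βERKO-labelled array was close to C57, 24 days. Mdm2, the ubiquitin ligase of p53, was near background on αERKO, at least 6.80-fold lower, while Rrm2b, a ribonucleotide reductase subunit for DNA repair, had a log2 ratio of 0.34, within 2-fold. Cdkn1a, the cell cycle inhibitor p21, was left out because its spot carried a contamination call on the βERKO-labelled array, where it read 8.51; it was good on the other 6 arrays, at 1.48 on αERKO and 6.99, 7.47, 7.79, 7.03 and 7.23 on the wild-type arrays.

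**Figure D2:**
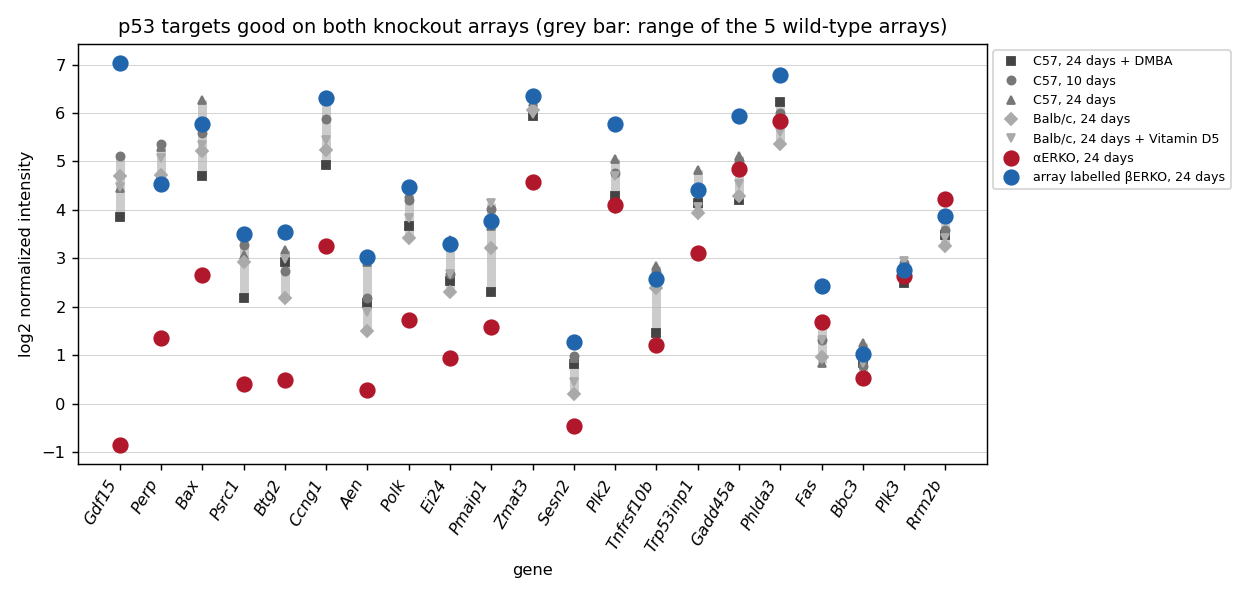
Log2 normalized intensity (vertical axis) of the 21 p53 targets good on both knockout arrays, ordered by log2 ratio, on the αERKO array (red), the βERKO-labelled array (blue) and the 5 wild-type arrays (grey symbols, with a grey bar for their range). The red point lies below the grey bar for 15 genes and the blue point above it for 13.

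Genes of the integrated stress response, induced through ATF4 when amino acids are short or unfolded protein accumulates, followed with 15 of 30 over 2-fold lower, 1 higher and a median log2 ratio of -0.96. Slc3a2, the heavy chain of amino acid transporters, was 3.50 and 6.41, against 5.52, 6.41, 7.17, 6.08 and 6.18. Cebpb was 2.88 and 5.43, against 5.03, 5.41, 5.40, 4.94 and 5.48. Ddit3, which encodes CHOP, had a log2 ratio of -2.11, Ppp1r15a of -2.34 and Chac1 of -2.49, whereas Asns (-0.60), Psat1 (-0.05) and Stc2 (-0.02) differed less than 2-fold. The higher gene was Phgdh, the first enzyme of serine synthesis, at 3.00 and 1.71, against 2.65, 2.49, 2.40, 2.15 and 2.48; another of its probes had a log2 ratio of 1.66. Phgdh lay on opposite sides of the wild-type range with the αERKO array above, and Gars, Gdf15 and Sesn2 with the αERKO array below; Gdf15 and Sesn2 are also p53 targets.

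The composite element of ATF4 and CHOP, searched as TGATGNAAN on both strands, was present in 4.5% of genes with a promoter and in 10 of the 28 list members with one. Of the 4 genes on opposite sides, Gars, a glycyl-tRNA synthetase gene (chr6:55037751-55038050, plus strand), held it, on the reverse strand and in capitals below.
Gars: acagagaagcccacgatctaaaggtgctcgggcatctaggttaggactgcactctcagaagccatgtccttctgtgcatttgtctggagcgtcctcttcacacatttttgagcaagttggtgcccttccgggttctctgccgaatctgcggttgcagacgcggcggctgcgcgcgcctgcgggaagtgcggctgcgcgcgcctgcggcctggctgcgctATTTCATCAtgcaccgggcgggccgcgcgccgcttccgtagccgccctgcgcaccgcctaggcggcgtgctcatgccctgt
Gars was 6.74 and 7.22 on the knockout arrays, against 6.78, 7.07, 7.04, 7.02 and 7.01, a log2 ratio of -0.48 that held on opposite sides under 3 of the 6 scalings, so the gene with the matched letters was the member with the smallest difference of the 4.

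Heat shock proteins and chaperonins were lower in 15 of 26 and higher in 1, with a median log2 ratio of -1.10, and the count of lower genes ranged from 6 to 15 over the scalings. The inducible chaperone Hspa1a was 2.84 and 5.30, against 4.33, 5.50, 6.37, 5.41 and 6.11, and the small heat shock protein Hspb1 was 5.84 and 7.89, against 7.52, 7.85, 8.31, 7.38 and 7.46. The βERKO-labelled array was within the wild-type range for both. Hspb6, a small heat shock protein abundant in muscle, went the other way, at 4.85 and 3.31, against 1.70, 0.95, 1.52, 0.90 and 1.18. The heat shock element unit GAANNTTC was present in 9.04% of genes with a promoter and in 10 of the 22 members with one.

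Immediate early and AP-1 genes, transcribed within minutes of growth factor or stress signals, were lower in 11 of 21 and higher in 2, beside 18.2% and 8.53% of all genes. Their median log2 ratio was -1.13, and 7 to 11 were lower over the scalings. In 6 of the 21 the knockout arrays were on opposite sides with the αERKO array below (5 to 8 over the scalings, and 4 genes under all 6), beside 5.68% of all genes. Klf6, a zinc finger transcription factor, was -0.10 and 4.15, against 3.8, 3.95, 3.73, 2.30 and 2.36. Ier5 was 1.30 and 3.90, against 2.86, 3.19, 3.60, 2.30 and 3.00. Ier3 was 3.64 and 7.43, against 4.92, 7.80, 7.52, 7.67 and 7.70, so that only its αERKO value lay outside the wild-type range. The other genes on opposite sides were Egr1, Jun, Nr4a2 and Srf, whose log2 ratios lay between -1.53 and -1.13. Fosl1, an AP-1 subunit, could not be seen above background on αERKO, at least 52.9-fold lower. Klf2, a factor best known from endothelium and lymphocytes, was higher, at 6.89 and 3.64, against 5.45, 3.49, 3.55, 3.17 and 3.44, as was Dusp2 (log2 ratio 1.69).

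Glycolysis and hypoxia genes were lower in 15 of 25 and higher in 1, with a median log2 ratio of -1.11. Adm, which encodes the hypoxia-induced peptide adrenomedullin, was -0.54 and 4.07, against 1.19, 3.72, 4.49, 3.68 and 3.44. Pgf, a placental growth factor of the VEGF family, was 0.02 and 3.93, against 4.23, 3.64, 3.70, 3.15 and 3.31. The glucose transporter gene Slc2a1 had a log2 ratio of -2.67, whereas Ldha (-0.33), Vegfa (-0.19) and Aldoa (-0.09) were within 2-fold, and Pfkfb3 was higher (1.84). Apoptosis regulators of the BCL2 family were lower in 6 of 15 (4 to 6 over the scalings) and higher in 0 (0 to 1), among them Bax, Pmaip1 (log2 ratio -2.19) and Bcl2l1 (-1.63), so that members that promote and members that oppose cell death were both among the lower ones.

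**Figure D3:**
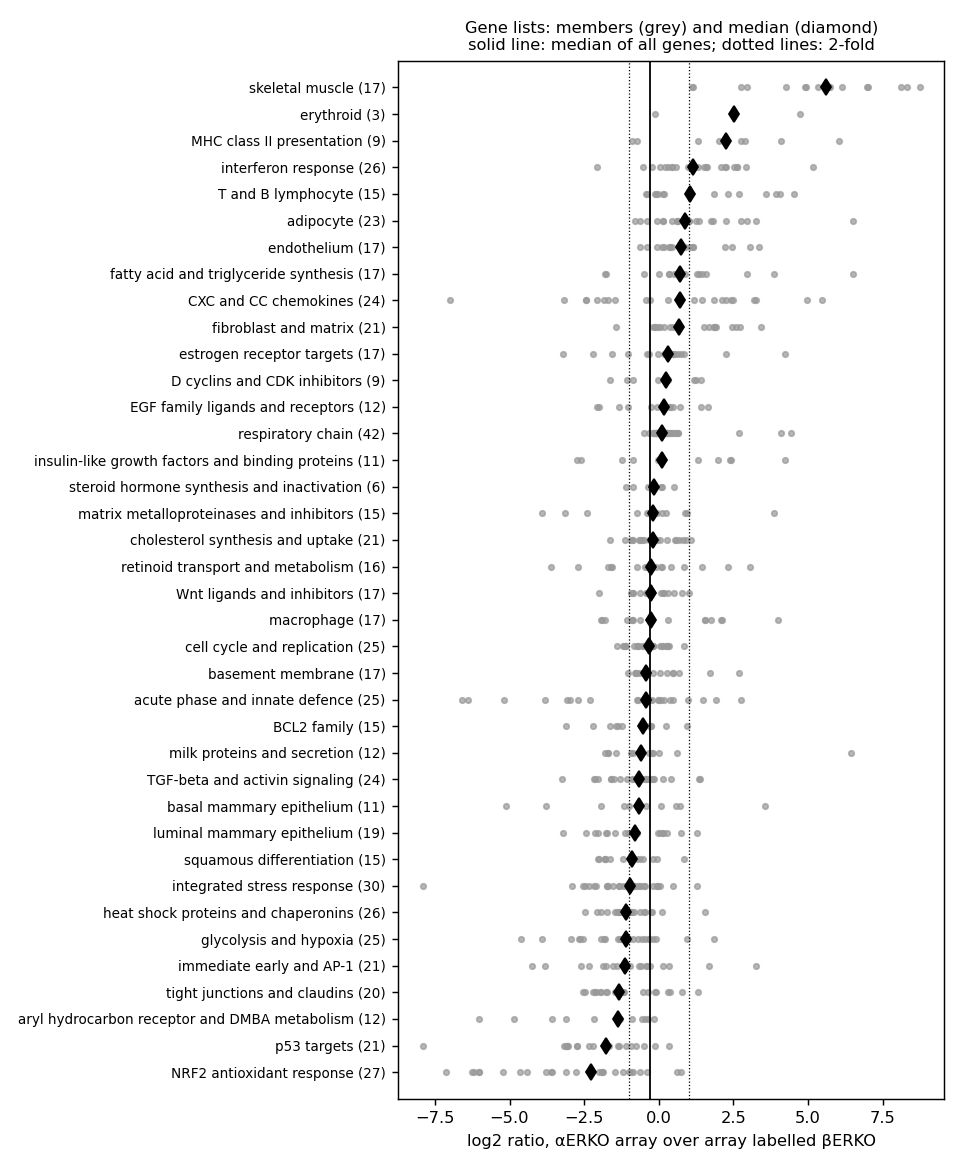
Log2 ratio of the αERKO array over the βERKO-labelled array (horizontal axis) for the members of 38 gene lists with at least 3 genes good on both arrays (numbers of genes in parentheses); grey points are genes, black diamonds list medians, the solid line the median of all genes at -0.30 and the dotted lines 2-fold. List medians run from -2.29 for the NRF2 antioxidant response to 5.60 for skeletal muscle.

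Many epithelial markers were lower as well. Of 19 luminal markers measured, 9 were over 2-fold lower and 1 higher, with a median log2 ratio of -0.81, and of 11 basal markers 5 were lower (3 to 5 over the scalings) and 1 higher, with a median of -0.68. The median level of the luminal markers good on all 7 arrays was 4.02 on the αERKO array, 5.10 on the βERKO-labelled array and 4.88 to 5.49 on the wild-type arrays, so that only the αERKO array lay outside that range. For the basal markers the median was 4.12 on the βERKO-labelled array, above the wild-type range of 2.67 to 3.73, and 2.77 on the αERKO array, within it. The single genes did not follow this median, which can be the value of a different gene on each array. The αERKO array was below all 5 wild-type arrays for 5 of the 11 basal markers and above for 1, beside 39.7% and 24.8% of all genes. The βERKO-labelled array was below for 0 and above for 1, beside 7.21% and 24.5%. In a pool of whole glands, fewer cells of a type and less RNA per cell cannot be told apart, and the part of cell mixture in the lists given above and below was not tested. Krt17 was -1.0 and 4.12, against 1.91, 5.29, 4.00, 4.62 and 5.90, and Krt14, a keratin of basal cells, was 2.77 and 6.54, against 5.19, 7.80, 6.48, 7.27 and 8.0. Elf5, the transcription factor of alveolar fate, was 1.88 and 5.10, against 4.69, 5.81, 5.31, 5.66 and 6.01. The luminal keratins Krt8 and Krt18 had log2 ratios of -2.05 and -0.75, while the luminal transcription factors Foxa1 (0.15) and Gata3 (0.28) and the keratins Krt7 (-0.02) and Krt19 (0.04) were close to equal, so the luminal markers did not differ by a common factor.

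Tight junction genes, which seal epithelia, were lower in 12 of 20 and higher in 1, with a median log2 ratio of -1.32. Cldn1 was -0.11 and 2.35, against 1.5, 3.18, 2.96, 2.19 and 3.34, and F11r, a junctional adhesion molecule, was 1.35 and 3.56, against 3.25, 3.21, 4.02, 2.23 and 3.05. Cldn5, the claudin of endothelium, and Cldn18 differed less, with log2 ratios of 0.36 and -0.13. Squamous differentiation genes, the cornified envelope and stress keratins, were lower in 7 of 15 and higher in 0; Sprr1b was 2.31 and 4.35, against 1.20, 4.14, 2.23, 3.18 and 4.18. Milk protein genes were lower in 4 of 12 (2 to 4 over the scalings), among them Csn3 (log2 ratio -1.81) and Mfge8 (-1.69), while Glycam1 was 6.17 and -0.26, against 1.63, -0.53, -0.56, -0.45 and -1.28; Glycam1 is made by secretory epithelium and also by the high endothelial venules of lymph nodes.

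Inflammatory genes went in both directions. Among 24 chemokines, 8 were over 2-fold lower and 11 higher on the αERKO array, beside 18.2% and 8.53% of all genes, with a median log2 ratio of 0.70. Of 7 more that were not good on both arrays, 5 were over 2-fold lower and 2 higher as a bound, so neither direction prevailed. The lower ones included attractants of neutrophils and monocytes: Cxcl1 was 0.10 and 7.11, against 3.49, 6.70, 5.12, 6.03 and 7.19, and Ccl2 was 1.62 and 4.79, against 3.75, 2.74, 2.56, 2.08 and 2.52. Cxcl2 and Cxcl5, neutrophil attractants near background on αERKO, were at least 38.5-fold and at least 34.4-fold lower. The higher ones included attractants of lymphocytes and dendritic cells: Ccl19 was 6.09 and 0.62, against 0.08, -0.92, -1.20, -0.69 and -0.73, and Ccl5 was 4.64 and -0.31, against 1.67, -1.20, 0.03, -0.69 and -0.27. Ppbp (log2 ratio 2.43) and Cxcl15 (2.12), which also attract neutrophils, were higher, so the neutrophil attractants did not share a direction. For Ccl2 the βERKO-labelled array was the highest of the 7 and the αERKO array the lowest, and for Ccl19 and Ccl5 the αERKO array was the highest.

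Of 25 acute phase and innate defence genes, 8 were lower and 3 higher (1 to 4 over the scalings). Chil1, a chitinase-like protein of activated epithelium and macrophages, was -0.02 and 6.58, against 4.28, 6.70, 4.63, 6.96 and 7.89, Saa3, a serum amyloid A gene, was -0.24 and 6.15, against 6.76, 6.54, 4.40, 7.10 and 8.03, and Slpi, an epithelial protease inhibitor, was 3.85 and 9.04, against 6.58, 9.16, 9.26, 9.12 and 9.05. In these 3 genes the αERKO array alone stood outside the wild-type range. Complement C3 was 3.87 and 1.13, against 3.53, 2.66, 2.80, 2.45 and 3.86, on opposite sides with the αERKO array above under 5 of the 6 scalings and by a margin of 0.01 on the αERKO side. The pentraxin gene Ptx3 (log2 ratio -3.8) and the heme-binding protein gene Hpx (-2.99) were on opposite sides the other way under all 6 scalings. Matrix metalloproteinases and their inhibitors were lower in 3 of 15 and higher in 1 (1 to 3 over the scalings), close to the 18.2% and 8.53% of all genes. Timp1 was 0.53 and 4.44, against 4.96, 2.89, 2.06, 2.49 and 3.70, and Timp4, an inhibitor expressed in fat, was 3.99 and 0.13, against 3.85 on C57, 24 days + DMBA and 1.13 on C57, 24 days, being near background on the others. Mmp12, macrophage elastase, was lower on αERKO by at least 84.3-fold.

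Skeletal muscle genes were the highest on the αERKO array, and all 17 measured were over 2-fold higher, with a median log2 ratio of 5.60. A further 8 were good on the αERKO array alone and higher there by over 2-fold as a bound, among them Tnnt3, at least 423-fold, and Myh4, the fast myosin heavy chain, at least 181-fold. Tnnc2, fast skeletal troponin C, was 8.61 on the αERKO array and -0.12 on the βERKO-labelled array; it was -1.26 and -0.32 on C57, 10 days and Balb/c, 24 days + Vitamin D5 and near background on the other wild-type arrays. Pvalb, a calcium buffer of fast fibers, had a log2 ratio of 8.31 and Ttn, the sarcomeric spring titin, of 8.12. The median level of the 8 muscle genes good on all 7 arrays was 7.70 on the αERKO array, 1.84 on the βERKO-labelled array and 0.29 to 0.85 on the wild-type arrays. By this median the βERKO-labelled array was also above all of the wild-type arrays. Gene by gene, it was above all 5 for 8 of the 17 measured and below all 5 for 2, beside 24.5% and 7.21% of all genes. Skeletal muscle is no component of a mammary gland, and these values stand beside every higher list below; their part in those was not tested.

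Of the 7 red blood cell genes on the array, 3 were good on both knockout arrays and 4 on neither. Of these 3, 2 were over 2-fold higher and 1 was within 2-fold, at a log2 ratio of -0.12. Hba-a1, an alpha globin, was 9.17 and 4.44, against 5.18, 2.23, 3.02, 1.53 and 1.17. Alas2, of erythroid heme synthesis, had a log2 ratio of 2.51. Hbb-y, an embryonic globin gene, had a log2 ratio of 7.81 by its brightest probe and 0.08 by another, and probes of the globin family may share targets. Respiratory chain genes, which muscle expresses strongly, were within 2-fold in 39 of 42, and 3 to 5 were higher over the scalings. With the array median these were Cox6a2 (4.44), Cox8b (4.10) and Cox7a1 (2.68), the subunits of cytochrome oxidase specific to heart and skeletal muscle, with Cox8b also known from brown fat. The median of the list was 0.11 beside -0.30 for all genes.

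Adipocyte genes were higher in 11 of 23 and lower in 0, with a median log2 ratio of 0.88. The 12 members within 2-fold included Fabp4 and Adipoq, each with a log2 ratio of 0.14, and Cd36, at -0.80. The largest ratio was that of Thrsp, a regulator of fatty acid synthesis, at 6.97 and 0.45, against 6.15, 1.42, 3.56, 1.81 and 1.99. Cfd, adipsin, was 9.41 and 6.16, against 7.39, 1.33, 4.63, 0.91 and 0.42, and Retn, resistin, had a log2 ratio of 2.96. Fatty acid and triglyceride synthesis was higher in 7 of 17 and lower in 2: Fasn, fatty acid synthase, was 8.40 and 4.53, against 6.94, 4.30, 4.79, 4.45 and 4.45, and its other probe had a log2 ratio of 3.14. Elovl6, a fatty acid elongase, was 7.68 and 4.71, against 4.98, 5.95, 5.36, 5.26 and 5.75, the αERKO array above and the βERKO-labelled array below all wild-type arrays. Fads2, a fatty acid desaturase, was 0.14 and 1.89, against 1.75, 0.64, 0.43, 0.26 and 0.95, on opposite sides the other way, and Scd2 was 3.19 and 5.00, against 5.58, 4.73, 4.10, 4.14 and 4.54. Fasn and Elovl6 were thus higher and the desaturase genes Fads2 and Scd2 lower.

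Lymphocyte markers were higher in 8 of 15 and lower in 0, with a median log2 ratio of 1.05, and 4 more were higher as a bound. The lymphocyte gene Cd52, not particular to T cells, had a log2 ratio of 4.52, and the T cell genes Cd2, Cd3d and Lck had 4.06, 3.94 and 3.59. Cd2 was 4.29 and 0.22, against 0.26, 0.32, 0.36, -0.07 and 0.18. Of the B cell genes, Cd79a (-0.11) was close to equal, while Cd79b (2.70) was higher and Ms4a1 was at least 17.9-fold higher. The MHC class II genes, which present antigen to helper T cells, were higher in 7 of 9, with a median log2 ratio of 2.26, and the other 3 on the array were good on the αERKO array alone. H2-Aa and Cd74, the invariant chain, were at least 300.0-fold and at least 107-fold higher. H2-Eb1 was 5.70 and -0.33 on the knockout arrays, 1.20 on C57, 24 days + DMBA and -0.34 on Balb/c, 24 days, and near background on the other wild-type arrays, a log2 ratio of 6.03. H2-DMa, which loads peptide onto class II molecules, was 3.28 and 1.01, against 1.88, 1.42, 1.86, 1.20 and 1.53, on opposite sides under all 6 scalings.

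Interferon response genes were higher in 16 of 26 and lower in 1, with a median log2 ratio of 1.15 and 11 to 17 higher over the scalings. Ifitm1, a transmembrane antiviral protein, was 5.16 and 0.00, against 3.11, 0.05, 0.38, 0.47 and 1.91, on opposite sides of the wild-type range, although the βERKO-labelled array and C57, 10 days were almost equal. Oas2 had a log2 ratio of 2.63, Irf7 of 2.22 and Isg15 of 0.04, and the lower gene was Cxcl10, at -2.06. Endothelial markers were higher in 7 of 17 (4 to 9 over the scalings) and lower in 0, with Kdr, a VEGF receptor, at 3.07 and Pecam1 at -0.06. Fibroblast and matrix genes were higher in 10 of 21 and lower in 1: Col3a1 was 7.74 and 4.31, against 6.84, 1.36, 2.28, 1.96 and 3.00, and the lower gene was Lox, a collagen cross-linking enzyme, at -1.44. For endothelium, fibroblast and matrix genes the C57 array with DMBA was also high, with median levels of 3.04 and 4.31 beside 2.44 and 4.35 on the αERKO array. It was likewise the highest wild-type array for adipocyte (5.21 beside 5.91), fatty acid synthesis (5.10 beside 5.59) and interferon genes (2.76 beside 3.22). Farther below the αERKO array it had 0.70 beside 2.20 for lymphocyte, 1.88 beside 3.28 for MHC class II and 0.51 beside 7.70 for skeletal muscle genes. Macrophage markers were higher in 6 of 17 and lower in 4; C1qa was 5.23 and 3.11, against 7.30, 1.52, 4.48, 0.23 and 0.44, while Cd14 was 4.5 and 6.39, against 5.98, 6.91, 6.57, 6.76 and 7.14.

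The genes with the knockout arrays on opposite sides of all 5 wild-type arrays were counted over the whole array. Among 21480 probes, 472 (2.20%) had the αERKO array above and the βERKO-labelled array below, and 1004 (4.67%) had the reverse. Among the 10380 genes the counts were 124 (1.19%) and 590 (5.68%). By itself, the αERKO array was above all 5 for 24.8% of genes and below for 39.7%, and the βERKO-labelled array above for 24.5% and below for 7.21%. Under the other scalings, in the order used above, genes with αERKO above and βERKO below made up 2.61%, 2.20%, 3.06%, 1.18% and 1.26%, and the reverse 3.68%, 4.08%, 3.29%, 4.84% and 5.62%. By probe, the order of the directions depended on the scaling, with 800 and 599 probes when arrays were scaled to the 75th percentile and 897 and 579 after cyclic loess. By gene, those with the αERKO array below were more under each of the 6 scalings, though only 341 beside 318 after cyclic loess. Under all 6 scalings at once, 329 and 370 probes, and 83 and 236 genes, were on opposite sides. Of the 472 and 1004 probes counted with the array median, 12 and 43 were at least 1.5-fold beyond the wild-type range on both sides at once. For the 590 genes with the αERKO array below, the wild-type array nearest to αERKO was Balb/c, 24 days for 308 and C57, 24 days + DMBA for 165, and the wild-type array nearest to the βERKO-labelled array was C57, 24 days for 327.

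**Figure D4:**
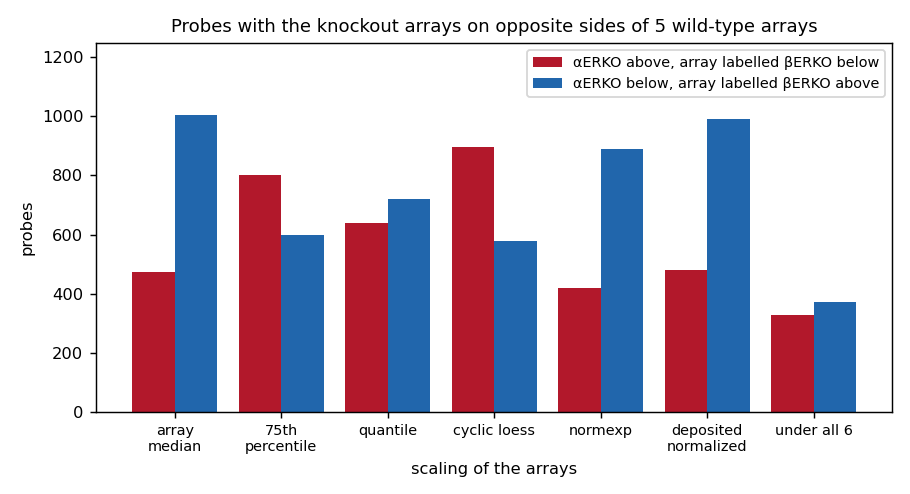
Number of gene probes good on both knockout arrays (vertical axis) with these arrays on opposite sides of the 5 wild-type arrays, for each of 6 scalings and for all 6 at once (horizontal axis); red bars count probes with the αERKO array above, blue bars probes with it below. With the array median 472 and 1004 probes are counted, with the 75th percentile 800 and 599, so the taller bar changes.

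The genes named from these were those farthest outside the wild-type range on their nearer side, and all 15 given here kept their sides under all 6 scalings. Below on the αERKO array and above on the other, besides Gdf15, was Maoa, monoamine oxidase A, at 2.89 and 7.62, against 5.02, 6.17, 6.18, 5.90 and 5.03. Kcne3, an accessory subunit of potassium channels, was 0.39 and 5.34, against 3.08, 4.47, 1.97, 3.20 and 4.36, and Lgals3, which encodes galectin-3, was 1.20 and 4.63, against 2.89, 3.05, 3.35, 2.67 and 2.48. Rln1, relaxin, was -1.05 and 2.66, against 0.58, 0.87, 1.60, 0.30 and -0.15. Olfr643, an olfactory receptor gene, was -0.66 and 1.93, against 0.50, 0.96, 0.80, 0.97 and 0.81. In these genes the wild-type arrays held a middle band, narrow for Olfr643 and wide for Kcne3.

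Above on the αERKO array and below on the other were Thrsp, described above, and Scnn1b, the beta subunit of the epithelial sodium channel, at 2.84 and -0.08, against 2.28, 0.55, 0.77, 0.67 and 1.03. Fbp2, the muscle fructose bisphosphatase, was 3.63 and 1.21, against 2.04, 3.15, 2.32, 2.74 and 3.04, and Mogat1, an enzyme of triglyceride synthesis, was 5.29 and 2.38, against 3.43, 3.88, 3.40, 4.85 and 4.41. Lrrc75a was 2.99 and 1.75, against 2.23, 2.21, 2.47, 2.15 and 2.24, and Snx21, a sorting nexin, was 1.68 and 0.14, against 0.62, 0.77, 0.73, 0.92 and 1.29. The ubiquitin genes Usp2, a deubiquitinase, and Rnf31, the ligase HOIP, had the smallest log2 ratios, 0.99 and 0.96, with wild-type bands of 3.16 to 3.35 and 2.17 to 2.36. For Usp2 and Rnf31 the distances were thus small in absolute terms, within 2-fold between the knockout arrays, and large only beside a tight wild-type band.

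**Figure D5:**
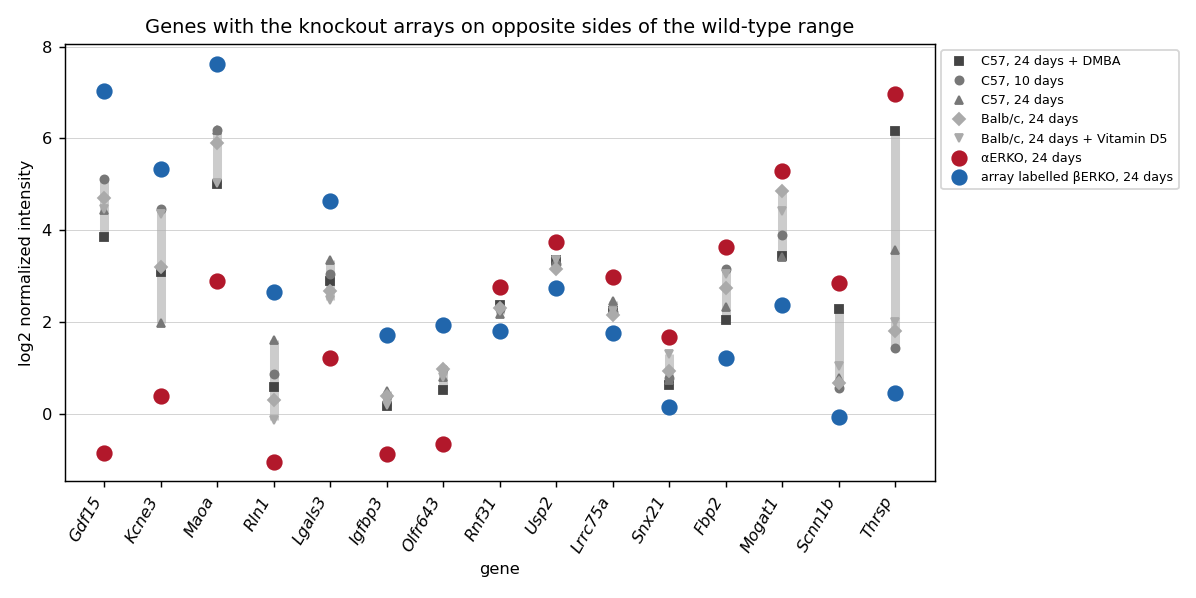
Log2 normalized intensity (vertical axis) of 15 genes far outside the wild-type range on opposite sides, 7 with the αERKO array below and 8 with it above, on the αERKO array (red), the βERKO-labelled array (blue) and the 5 wild-type arrays (grey symbols, with a grey bar for their range). From Gdf15 to Olfr643 the red point is lowest, and from Rnf31 to Thrsp it is highest.

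Of 11 measured genes of the insulin-like growth factor list, 2 were on opposite sides with the αERKO array below and 1 with it above. The shares of all genes were 5.68% and 1.19%. The binding protein gene Igfbp3 was -0.88 and 1.72, against 0.17, 0.38, 0.50, 0.39 and 0.19, and Igfbp2 was 0.75 and 3.49, against 1.45, 1.86, 1.61, 2.17 and 1.23, both with the αERKO array below. Igfbp4, also a target of estrogen, was 4.30 and 0.06, against 1.90, 0.39, 0.15, 0.38 and 1.01, with the αERKO array above. The ligands Igf1 (log2 ratio 2.38) and Igf2 (2.00) were higher, Insr (0.10) was close to equal, and Igfbp5 was lower by both of its probes (-1.22 and -2.08). Of the 11 genes of the list, 5 were higher and 3 lower, beside 8.53% and 18.2% of all genes. In the TGF-beta and activin list, 9 of 24 were lower and 2 higher. Inhba, the activin A subunit, was -0.07 and 3.19, against 0.46, 2.50, 1.41, 1.99 and 2.39, on opposite sides with the αERKO array below. The receptor gene Acvr2b was 3.66 and 2.30, against 2.66, 3.08, 2.73, 2.98 and 3.27, on opposite sides the other way. Other receptor genes of the list, Acvr2a (log2 ratio -0.46) and Acvr1b (-0.20), were within 2-fold and not on opposite sides, so this holds for Acvr2b and not for activin receptors in general.

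Estrogen receptor targets showed no common direction, with 4 of 17 over 2-fold lower (3 to 4 over the scalings) and 2 higher (2 to 3). These are 23.5% and 11.8%, near the 18.2% and 8.53% of all genes. As a bound, 2 more were lower and 1 higher. The median log2 ratio was 0.30, which is above the -0.30 of all genes. Pgr, the progesterone receptor, was 0.95 and 0.09, against 0.69, -0.70, -0.03, -0.18 and -0.35, with a log2 ratio of 0.86; the αERKO array was the highest of the 7. Gper1, the membrane estrogen receptor GPR30, was 0.40 and -0.13, against 0.11, -0.50, -0.22, -0.55 and -0.24, with a log2 ratio of 0.53. Egfr was 1.98 and 2.24, with a log2 ratio of -0.26 that changed sign to 0.04 after cyclic loess. Values of these genes are within 2-fold and Pgr and Gper1 are dim. The lower targets were Elf5, Myc (log2 ratio -2.2), Ctsd (-1.56) and Areg (-1.04), and the higher ones Igfbp4 and Cxcl12 (2.25). The palindromic estrogen response element was present in the promoters of 0.0740% of genes and in 0 of the 17 list members with a promoter, and Greb1 was not found by name on the array. EGF family ligands and receptors were lower in 4 of 12 (2 to 4 over the scalings) and higher in 2, with Ereg (-2.08) and Hbegf (-2.01) the lowest and Nrg4 (1.66) the highest.

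Cell cycle and replication genes were mostly within 2-fold, in 20 of 25, with 5 lower, near the 18.2% of all genes. Their median log2 ratio was -0.33 beside -0.30, and over the scalings 1 to 5 were lower. A further 6 were good on the βERKO-labelled array alone, 1 of them over 2-fold lower as a bound, and 0 on the αERKO array alone. The αERKO array was below all 5 wild-type arrays for 14 of the 25, beside 39.7% of all genes. Tyms, thymidylate synthase, had the lowest log2 ratio, -1.41, and Cdk1 was 0.03. Among D cyclins and CDK inhibitors 3 of 9 were higher and 2 lower (1 to 2 over the scalings): the inhibitors Cdkn1c (1.16), Cdkn2c (1.26) and Cdkn2d (1.40) were higher, while Cdkn2b was 3.74 and 5.36, against 5.01, 4.71, 4.93, 4.44 and 4.69, on opposite sides with the αERKO array below. Cholesterol synthesis was within 2-fold in 18 of 21, with 1 higher (0 to 5 over the scalings). Basement membrane genes were within 2-fold in 14 of 17 and Wnt ligands and inhibitors in 15 of 17. Retinoid genes were higher in 3 of 16 (2 to 4 over the scalings) and lower in 5, with the alcohol dehydrogenases Adh1 at 3.06 and Adh7 at -3.59. Of the 6 steroid hormone genes measured, 5 were within 2-fold and Akr1c18, which inactivates progesterone, was lower (-1.09) with the array median and the deposited intensity only. Star, which delivers cholesterol for steroid synthesis, was dim on αERKO, at least 21.4-fold lower, a gene named after its value was seen. Of the sex-linked genes, 1 was good on both arrays, within 2-fold.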

How the data were processed

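The authors pooled RNA, hybridized and scanned the arrays, and deposited scanner files in which each spot has an intensity corrected for its local background and a CodeLink quality call; they also deposited a normalized intensity. The series table of normalized values was not used. Control spots were left out. Intensities of gene probes were divided by the array's median over gene probes, as the study's methods scale them, values not above 0 were set to the smallest positive value of that array, and logarithms to base 2 followed. Probes good on both knockout arrays were compared. Names came from RefSeq's mouse gene table (14763 of 15553 probes with a RefSeq accession, 13971 symbols). For probes good on 1 knockout array, a bound was computed against the higher of the dim array's lowest good value and the probe's own value.

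No test was run, since every group is a single array. Wild-type values were used whatever their quality call; those of Phgdh and C3 on Balb/c, 24 days + Vitamin D5 and of Cldn1 on C57, 24 days + DMBA carried a contamination call. The members and the 39 gene lists, with 931 genes, were chosen with earlier results of these data known. Named were Esr1, Esr2, Pgr, Gper1, Egfr and Greb1, the 8 genes each way with the largest log2 ratio, the 8 each way with the largest smaller distance outside the wild-type range among probes good on all 7 arrays, and up to 3 each way per list over 2-fold; other genes were named after their values were seen, and some genes the rule picks are not reported here. Alternative scalings were the 75th percentile, quantile, cyclic loess and normexp with an offset of 50 (limma 3.58.1 in R 4.3.3), and the deposited normalized intensity. The counting was tested on simulated data (Python 3.11.15, numpy 2.4.6, pandas 2.3.3). Precision is limited by the number of arrays.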

Additional observations from a re-analysis of the deposited data

Results flagged for a closer look

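Among the 10380 genes, 124 (1.19%) had the αERKO array above and the βERKO-labelled array below all 5 wild-type arrays, and 590 (5.68%) the reverse. The 15 genes given here come from those farthest outside the wild-type range, the value by which they were picked. Each group is 1 array, and the difference was not tested. With the αERKO array below, the log2 ratios were -7.89 for Gdf15, -4.95 for Kcne3, -4.74 for Maoa, -3.70 for Rln1, -3.42 for Lgals3, -2.59 for Igfbp3 and -2.59 for Olfr643. With the αERKO array above, they were 6.52 for Thrsp, 2.92 for Scnn1b, 2.92 for Mogat1, 2.43 for Fbp2, 1.54 for Snx21, 1.24 for Lrrc75a, 0.99 for Usp2 and 0.96 for Rnf31. The direction of each depends on the βERKO label; Esr2 signal was measured on that array, and whether a disrupted transcript would give it was not tested.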

How the results depend on the processing

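Of 162 log2 ratios of named genes, each recomputed under 5 other scalings, 738 values moved by less than the SD between probes of the same accession, 71 moved more and 1 changed sign, that of Egfr to 0.0400 after cyclic loess. Of 39 list medians less the median of all genes, 181 values moved little, 3 moved more and 11 changed sign, all in lists close to the median of all genes: macrophage (-0.11 after quantile normalization and -0.13 after cyclic loess), the single sex-linked gene (-0.0417 and -0.0429), cell cycle (0.0298 with normexp), matrix metalloproteinases (-0.00796 after loess), basement membrane (0.0687 with normexp), cholesterol (-0.0161 after loess and -0.0110 with normexp) and Wnt (-0.0277 after quantile normalization and -0.0372 after loess). Against 1899 higher and 2876 lower probes, normexp gave 1044 and 1827, a threshold of 3-fold 929 and 1066, a threshold of 1.5-fold 3456 and 5852, probes good on at least 1 knockout array 3645 and 4478, and symbols 885 and 1891; cyclic loess gave 1751 lower. Against 472 and 1004 probes on opposite sides, the 75th percentile gave 800 and 599, cyclic loess 897 and 579, the 3 C57 arrays alone 826 and 1661, a distance of at least 1.5-fold on each side 12 and 43, probes over 2-fold 270 and 505, and symbols 124 and 590; under all 6 scalings, an alternative chosen after seeing the data, 370 had the αERKO array below. No paired analysis was possible because each group has 1 array, and none could be left out. The cause of these changes was not tested. Signal over background limits the dim probes.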
